A study of Mus musculus with 6 samples.

Results

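The genes described here are the integrin beta chains Itgb1, Itgb3, Itgb4, Itgb5, Itgb7 and Itgb8, the parvins Parva, Parvb and Parvg, and Ilk, which encodes integrin-linked kinase. Their rows were found in the expression table by gene identifier, which gave 10 genes of the 56953 listed. The list was chosen by the difference between the WT and GαqKO libraries as well as by gene family, because the normalized counts of Parvb had been seen to be near 0 in one group and high in the other. The differences between groups in these 10 genes are therefore given as values with their spread and with no test. The libraries were made from untreated mouse embryonic fibroblasts (MEFs), connective tissue cells cultured from mouse embryos, in serum-containing medium. There were 3 libraries from a WT line and 3 from a line labelled GαqKO, which the study describes as lacking both Gαq and the related Gα11. Both lines came from another laboratory. Mouse strain, embryonic age, passage number and whether each line is 1 clone are not given in the sources used here, so the spread between libraries is that of cultures of these lines.

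Integrins are cell surface receptors built from 1 alpha and 1 beta chain, and they bind the extracellular matrix outside the cell. The short cytoplasmic tail of most beta chains carries NPxY or related NxxY motifs, at which talin and kindlin dock to link the receptor to actin. Itgb1 pairs with most alpha chains, the αv chain among them. Itgb3, Itgb5 and Itgb8 also pair with αv, Itgb4 pairs with α6 in the hemidesmosomes of epithelia, and Itgb7 pairs with α4 or αE on leukocytes. Integrin-linked kinase, a PINCH protein and a parvin form a stable complex at focal adhesions, in which the parvin binds actin and paxillin. Parva, α-parvin, is expressed in most tissues, Parvb, β-parvin, is known from heart and skeletal muscle, and Parvg, γ-parvin, from blood cells.

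The ends of the coding sequences are shown because the tail sets how each beta chain meets talin and, through it, actin. Each sequence is the last 150 coding bases before the stop codon of the canonical transcript, read 5′ to 3′ from GRCm39 with GENCODE release 39, and capitals mark in-frame codons of an NPxY motif.
Itgb1 (plus strand, within chr8:129452581-129458566): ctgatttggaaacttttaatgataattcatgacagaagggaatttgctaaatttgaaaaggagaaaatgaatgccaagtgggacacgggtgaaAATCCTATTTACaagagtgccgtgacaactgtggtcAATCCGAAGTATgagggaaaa
Itgb3 (plus strand, within chr11:104556372-104557968): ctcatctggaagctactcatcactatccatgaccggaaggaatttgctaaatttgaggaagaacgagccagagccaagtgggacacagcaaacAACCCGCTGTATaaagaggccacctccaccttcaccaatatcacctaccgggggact
Itgb5 (plus strand, within chr16:33768195-33769119): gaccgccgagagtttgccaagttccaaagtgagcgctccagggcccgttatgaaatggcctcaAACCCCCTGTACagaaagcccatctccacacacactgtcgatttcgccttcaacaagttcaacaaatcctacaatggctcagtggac
Itgb7 (minus strand, within chr15:102124598-102124951): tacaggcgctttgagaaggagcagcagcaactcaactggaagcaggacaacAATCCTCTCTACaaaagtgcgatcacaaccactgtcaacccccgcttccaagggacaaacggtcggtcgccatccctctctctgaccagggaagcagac
Itgb8 (minus strand, within chr12:119126855-119127101): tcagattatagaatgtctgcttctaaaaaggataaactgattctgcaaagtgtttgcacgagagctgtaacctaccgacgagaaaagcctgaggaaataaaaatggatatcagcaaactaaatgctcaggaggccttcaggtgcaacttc
Each of these stretches lay on 2 coding exons. Itgb1 held 2 such motifs, Itgb3, Itgb5 and Itgb7 held 1 each, and Itgb8 held 0. Only NPxY was searched, so other NxxY sites in these tails were neither marked nor counted. Itgb4, whose cytoplasmic part is much longer, also held 0 in this window. Of 21588 protein-coding genes, 83 (0.384%) held the motif in the same window.

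The 250 bases before the annotated start of Parvb and of Itgb8 are shown because these were the 2 members with the largest differences. Capitals mark matches, on either strand, to any of 6 short motifs that were searched. TATAAA is the TATA box, CCAAT the box of that name, GGGCGG the GC box, TGANTCA the AP-1 motif, GGAATG the TEAD motif and CACGTG an E-box, and none of them contains another.
Parvb (plus strand, chr15:84115982-84116231): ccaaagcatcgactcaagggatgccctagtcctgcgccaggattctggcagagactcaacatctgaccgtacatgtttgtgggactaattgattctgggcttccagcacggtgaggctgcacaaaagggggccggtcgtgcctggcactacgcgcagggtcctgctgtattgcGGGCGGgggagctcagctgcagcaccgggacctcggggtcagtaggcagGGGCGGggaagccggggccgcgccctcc
Itgb8 (minus strand, chr12:119202585-119202834): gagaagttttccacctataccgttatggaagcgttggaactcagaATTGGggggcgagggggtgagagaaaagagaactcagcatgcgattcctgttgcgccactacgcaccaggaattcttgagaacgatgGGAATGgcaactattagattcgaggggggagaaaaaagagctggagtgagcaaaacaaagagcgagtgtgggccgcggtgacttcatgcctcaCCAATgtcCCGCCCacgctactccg
The Parvb window held 2 GC boxes and none of the other motifs, with 16 CpG dinucleotides against a median of 6 over 21770 protein-coding genes. The Itgb8 window held 2 CCAAT boxes, 1 GC box and 1 TEAD motif, with 14 CpG dinucleotides. Over all these windows, 29.9% held a GC box, 36.1% a CCAAT box and 12.4% a TEAD motif. TATAAA was in 12.5%, TGANTCA in 6.46% and CACGTG in 5.69%. A match of letters is a description of the sequence and not a measured binding site.

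The deposited values are gene counts divided by 1 size factor per library, called normalized counts here, and they summed to between 11392429 and 11483486 per library. The underlying reads were recovered and used for 5 of the 6 libraries and ranged from 9853000 to 12229175. Gnaq, the gene for Gαq, was not lower in the libraries labelled GαqKO (1926 ± 36.0 against 1691 ± 48.5 normalized counts in WT, SD, n = 3 each), whereas Gna11 fell from 2148 ± 29.0 to 452 ± 28.7 (adjusted p = 9.16e-13, limma). A gene count does not show whether a transcript encodes the protein, and reads over a deleted part of the gene were not examined here, so this does not test the label, and the second group is called the libraries labelled GαqKO throughout. Of 10 fibroblast markers, 8 reached 100 normalized counts in some library, and the summed level of the list was 59435 to 64076 in WT and 52214 to 54112 in the other group. Pdgfra (19.6 against 2320), Dcn (32.1 against 1663) and Thy1 (0.696 against 64.9) were low in WT, and Lum did not exceed 4.03 in any library. Pdgfrb, S100a4 and Twist1 were also lower in WT. Vim (41785 against 33508), Col1a2 (13451 against 10455) and Col6a1 (3883 against 2041) were higher in WT, so the markers went both ways. In bulk RNA, fewer cells that express a gene and less RNA per cell cannot be told apart.

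Among the parvins, the libraries labelled GαqKO held abundant Parvb RNA where WT held almost none, and Parva differed little. Parvb (ENSMUSG00000022438.7, chr15:84116232-84199889) was at 0, 2.91 and 3.05 normalized counts in the WT libraries and at 2421, 2500 and 2473 in the libraries labelled GαqKO. The WT values came from 0, 3 and 3 reads, which is at the limit of what the depth resolves, and every library of the other group lay far above them. Its fitted log2 fold change was 9.94 (SE 0.396) on the log2(normalized count + 1) scale, and 0.0639% of the 14096 genes tested had a larger absolute change. That value depends on the constant added, since it was 8.50 with 5 in place of 1. From the recovered reads, 4740 in 2 libraries labelled GαqKO against 6 in 3 WT libraries, the ratio of rates was 1216, with an exact 95% interval of 558 to 3314 that covers counting error only. Parvb entered the set of tested genes only through the group in which it was high.

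Parva (chr7:112026712-112190915), the main parvin of WT, was at 1959, 1932 and 2013 normalized counts in WT and at 2229, 2139 and 2051 in the libraries labelled GαqKO. The groups did not overlap, but the gap between them was small, with a log2 fold change of 0.12 (SE 0.046). Parvg (chr15:84208227-84228198), the next gene after Parvb on the chromosome, was at 2.09, 0 and 2.04 in WT and at 4.70, 8.09 and 8.06 in the libraries labelled GαqKO. It was below the filter on low values and had no fitted value. Its recovered reads, 4 in WT and 12 in 2 libraries of the other group, gave a rate ratio of 4.62 with an exact 95% interval of 1.40 to 19.6 for counting error.

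Because longer transcripts collect more reads, levels of different genes were compared as normalized counts per kb of canonical transcript. On that scale Parva was 437 ± 9.17 in WT (SD, n = 3) and Parvb and Parvg were 0.524 ± 0.454 and 0.518 ± 0.448, which overlapped each other. In the libraries labelled GαqKO the order at the top was Parvb at 649 ± 10.6 and Parva at 475 ± 19.7, with no overlap. The summed parvin level per kb was 435, 429 and 448 in WT and 1134, 1136 and 1110 in the other group, a ratio of means of 2.57. Parvb made up 0.119% ± 0.103 of that sum in WT and 57.6% ± 1.27 in the libraries labelled GαqKO. The level of Parva itself was close to the same in both groups, so nearly all of the difference between the sums was Parvb RNA.

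**Figure D1:**
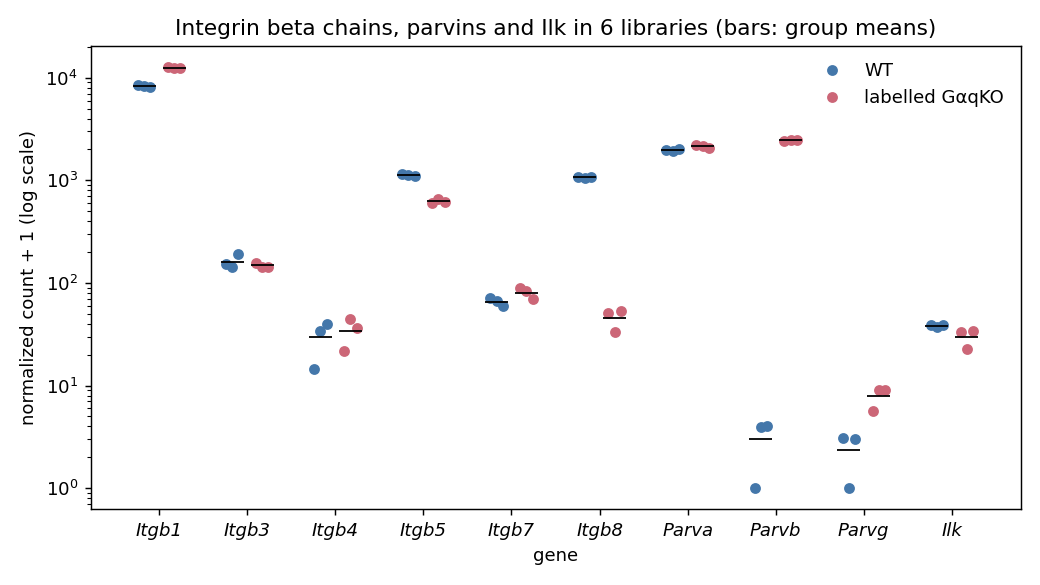
Normalized counts + 1 (log scale) of the 10 genes in each of the 6 libraries, with WT in blue, the libraries labelled GαqKO in red and group means as black bars. Parvb lies between 0 and 3.05 normalized counts in WT and between 2421 and 2500 in the other group, while Itgb8 lies between 1049 and 1082 in WT and between 32.4 and 52.4 in the other group.

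Of the genes that complete the complex with parvin, Lims1 and Rsu1 fell, and neither Lims2 nor Ilk was higher beyond the spread of its libraries. Lims1, which encodes PINCH1, fell from 2333 ± 29.3 to 1394 ± 22.6 normalized counts (log2 fold change -0.74, SE 0.043, adjusted p = 3.25e-09, limma). Lims2, which encodes PINCH2, stayed between 0.939 and 3.47 in all 6 libraries and was not tested. Rsu1, which encodes a PINCH-binding protein, fell from 464 ± 49.7 to 371 ± 41.0 (log2 fold change -0.32, SE 0.098, adjusted p = 0.0108, limma), and the adjusted p was 0.0626 without GαqKO replicate 1, 0.0509 without WT replicate 1 and 0.0587 without WT replicate 2. The value for Ilk (chr7:105385782-105392182) was 37.6, 35.9 and 37.7 in WT and 31.9, 22.0 and 33.2 in the libraries labelled GαqKO, with a log2 fold change of -0.36 (SE 0.242). The groups did not overlap, but the Ilk value is uncertain, since 90.3% of its exon bases coincide with exons of the neighbouring Rrp8 and Taf10 in the annotation and the strand setting of the counting is not stated.

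Of 12 genes for proteins that bind parvin or sit on the paxillin and PIX arm of the complex, 11 were tested, 1 rose and 5 fell at an adjusted p under 0.05. Over all genes tested, 31.8% rose and 34.1% fell by that rule, 65.8% in all. The list's median log2 fold change was -0.15, against -0.01 over all genes. Actn1, which encodes the actin crosslinker α-actinin-1, fell from 4720 ± 263 to 3187 ± 136 (log2 fold change -0.57, SE 0.050, adjusted p = 2.44e-07, limma). Its paralog Actn4 was at 3772 ± 30.4 and 3697 ± 53.0, with an adjusted p of 0.529 (limma). The gene for dysferlin, a membrane repair protein that binds β-parvin, was Dysf, which fell from 56.2 ± 15.1 to 15.6 ± 3.52 (log2 fold change -1.77, SE 0.281, adjusted p = 8.38e-05, limma). The gene for a kinase that binds α-parvin, Tesk1, fell from 148 ± 26.3 to 97.1 ± 5.53 (log2 fold change -0.59, SE 0.152, adjusted p = 0.0036, limma). Dysf and Tesk1 were named after their values were seen. Of 6 skeletal and cardiac muscle markers, 4 stayed at or under 3 reads' worth in every library and Myog and Actc1 were listed at 0 throughout. The sum of that list was 743 to 807 in WT, nearly all Tnnt2, and 16.2 to 25.2 in the libraries labelled GαqKO. That difference was Tnnt2 alone (753 against 6.49). The groups overlapped for Des, at 10.2 to 18.5 in WT and 10.4 to 16.1 in the other group, so the list had no common direction. Whether muscle cells contribute to the value of Parvb was not tested.

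Among the beta chains, Itgb8 and Itgb5 were lower in the libraries labelled GαqKO, Itgb1 was higher, and the groups overlapped for Itgb3, Itgb4 and Itgb7. Itgb8 (ENSMUSG00000025321.15, chr12:119121748-119202584), the chain of the αvβ8 integrin that binds latent TGF-β, was at 1082, 1049 and 1070 normalized counts in WT and at 49.8, 32.4 and 52.4 in the libraries labelled GαqKO. All WT values were thus more than 1000 and all values of the other group were far below them. The log2 fold change was -4.57 (SE 0.149), the mean was 23.8-fold lower, and 2.99% of genes tested had a larger absolute change. From the recovered reads, 81 in 2 libraries labelled GαqKO against 3167 in 3 WT libraries, the ratio of rates was 0.0394 (exact 95% interval 0.0312 to 0.0491, counting error only).

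Itgb5 (chr16:33649988-33771137), which pairs with αv in the vitronectin receptor αvβ5, was at 1153, 1133 and 1105 normalized counts in WT and at 597, 660 and 615 in the libraries labelled GαqKO. The groups were well apart, with a log2 fold change of -0.86 (SE 0.057). Itgb3 (chr11:104498826-104561302), the chain of αvβ3, was at 150, 141 and 189 in WT and at 157, 142 and 143 in the other group. Here the groups overlapped, and the log2 fold change of -0.11 (SE 0.132) was within the spread of the libraries. Itgb8, Itgb5 and Itgb3 thus had log2 fold changes of -4.57, -0.86 and -0.11.

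Itgb1 (chr8:129411876-129460618), the most abundant member in every library, was at 8478, 8221 and 8064 normalized counts in WT and at 12731, 12386 and 12527 in the libraries labelled GαqKO. The lowest value of the second group lay well above the highest WT value, with a log2 fold change of 0.60 (SE 0.039). Itgb4 (chr11:115865333-115899239), the epithelial chain, was at 13.6, 33.0 and 38.7 in WT and at 20.7, 43.9 and 35.2 in the other group. In the annotation 17.5% of the exon bases of Itgb4 coincide with exons of Galk1 or Gm73820, which adds to the uncertainty of its level. Itgb7 (chr15:102124429-102140379), the leukocyte chain, was at 70.0, 65.1 and 58.0 in WT and at 87.3, 82.1 and 69.5 in the other group. For both genes the groups overlapped, with log2 fold changes of 0.28 (SE 0.380) for Itgb4 and 0.30 (SE 0.170) for Itgb7. The log2 fold change of Itgb4 was -0.16 without WT replicate 1, and that of Itgb3 was 0.02 without WT replicate 3.

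Itgb4, Itgb7 and Parvg are known from other cell types, so the markers of those types are given beside them. Of 7 epithelial markers, 1 reached 100 normalized counts in a library, and the sum was 278 to 308 in WT and 6.04 to 15.0 in the libraries labelled GαqKO. Most of the WT sum was Krt14 (258 ± 3.97 against 1.11 ± 1.16), while its keratin partner Krt5 did not exceed 0.971. Krt8 (17.3 against 0.721) and Krt18 (14.5 against 1.01) were also lower. The groups overlapped for Epcam (3.05 against 4.64), Esrp1 (2.65 against 2.36) and Cldn4 (at most 3.13), so the markers did not all follow Krt14. Of 10 leukocyte markers, 1 reached 100, and the sum was 123 to 132 in WT and 88.3 to 118 in the other group, most of it Cd68. Ptprc, which encodes CD45 of all leukocytes, did not exceed 3.13, and Tyrobp was at 0 in every library. The 6 endothelial markers summed to 12.6 to 23.4 in WT and 15.0 to 25.4 in the other group. The part of any such cells in the values of Itgb4, Itgb7 and Parvg was not tested.

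Across the 10 members, 9 passed the filter on low values, and Parvg did not. The groups did not overlap for 6 of these 9, while this was so for 69.6% of all genes tested, nor did they for Parvg. Parvb and Itgb8 were the 2 members with an absolute log2 fold change over 1, and over all genes 20.7% passed that limit together with an adjusted p under 0.05 (10.2% upward and 10.5% downward). Since the members were chosen with this contrast known, these counts are a description. The median absolute log2 fold change was 0.36 for the 9 members and 0.39 for all genes tested.

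**Figure D2:**
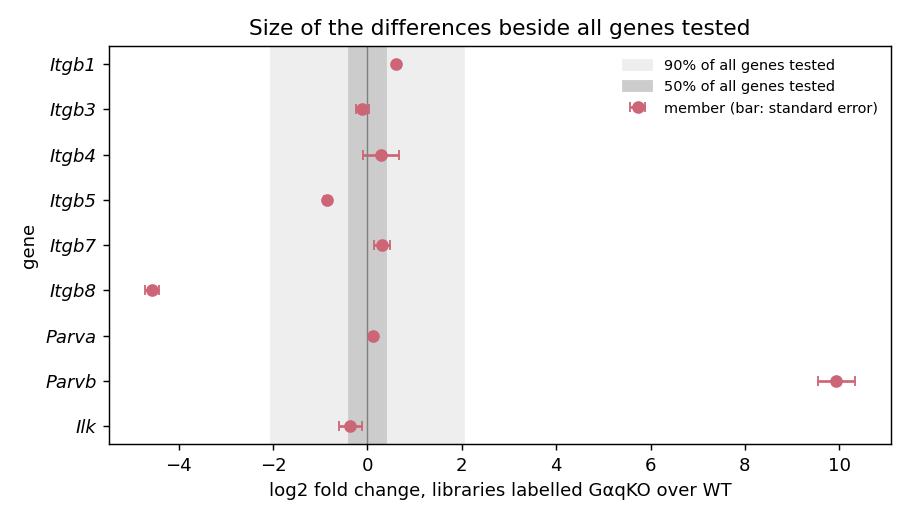
Log2 fold change of the 9 members that passed the filter, libraries labelled GαqKO over WT, with standard errors from limma as bars. Grey bands hold 50% (within 0.39) and 90% (within 2.05) of all genes tested, and Parvb at 9.94 and Itgb8 at -4.57 lie outside both.

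As levels per kb, the order of the beta chains in WT was Itgb1 at 1647 ± 41.6, Itgb5 at 340 ± 7.15, Itgb8 at 127 ± 1.96, Itgb3 at 27.7 ± 4.44, Itgb7 at 24.0 ± 2.24 and Itgb4 at 4.56 ± 2.11. Of these neighbours, Itgb3 and Itgb7 overlapped. In the libraries labelled GαqKO the order was Itgb1 at 2504 ± 34.7, Itgb5 at 188 ± 9.74, Itgb7 at 29.7 ± 3.42, Itgb3 at 25.5 ± 1.42, Itgb4 at 5.34 ± 1.89 and Itgb8 at 5.33 ± 1.29. There Itgb7 and Itgb3 overlapped, and so did Itgb4 and Itgb8. Itgb8 thus went from the third of the 6 beta chains to a level that could not be told from that of Itgb4.

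Itgb1 made up a larger share of the beta chain RNA in the libraries labelled GαqKO. The summed beta chain level per kb was 2170 ± 46.8 in WT and 2757 ± 27.8 in the libraries labelled GαqKO. The share of Itgb1 was 75.9% ± 0.299 in WT and 90.8% ± 0.413 in the other group. Itgb5 made up 15.6% ± 0.0937 and 6.80% ± 0.413, and Itgb8 made up 5.85% ± 0.110 and 0.193% ± 0.0460. Itgb3, Itgb5 and Itgb8 summed to 494 ± 6.06 in WT and 218 ± 7.50 in the other group. This sum leaves out Itgb1, which also pairs with αv and was higher in the libraries labelled GαqKO. Itgb8 was 25.7% ± 0.181 of that sum in WT and 2.46% ± 0.659 in the libraries labelled GαqKO, where Itgb5 was 85.9% ± 1.51.

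**Figure D3:**
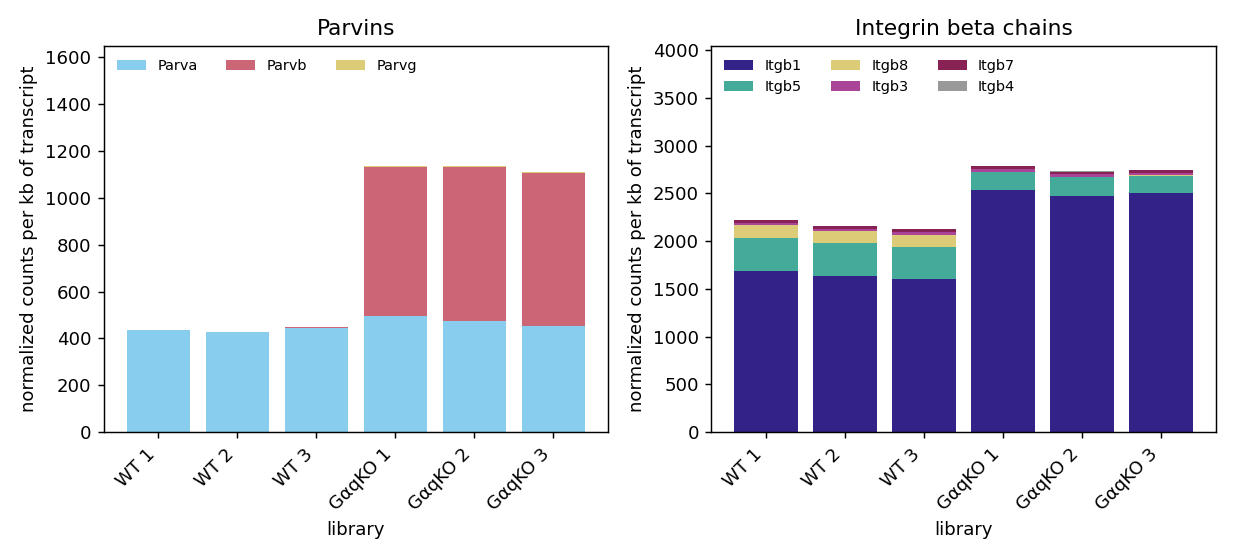
Stacked levels of the parvins (left) and of the 6 beta chains (right) in each library, in normalized counts per kb of canonical transcript. The parvin bars stand between 429 and 448 in WT and between 1110 and 1136 in the libraries labelled GαqKO, where Parvb is the larger section, and the yellow Itgb8 section of the beta chain bars can be seen by eye in WT alone.

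The alpha chains moved in both directions. Of 18 alpha chain genes, 11 were tested, and 5 rose and 6 fell at an adjusted p under 0.05. Of these, 3 that rose and 3 that fell were past a log2 fold change of 1 as well. Over all genes 65.8% were called and 20.7% were past both limits. Among the alpha chains past both limits, Itga2 (4.37 against 24.4) and Itga8 (3.11 against 17.97) met the filter on low values only through the libraries labelled GαqKO. Itga11 (24.3 against 11.9) reached the filter value in every WT library but not in every library of the other group. Itgav, a partner of Itgb1, Itgb3, Itgb5 and Itgb8, fell from 2868 ± 39.9 to 1394 ± 22.9 normalized counts (log2 fold change -1.04, SE 0.042, adjusted p = 8.38e-11, limma). Itga7, which with Itgb1 forms a laminin receptor of muscle, was at 695, 676 and 744 in WT and at 14.1, 15.0 and 24.2 in the other group (log2 fold change -5.27, SE 0.181, adjusted p = 1.65e-11, limma). Of the muscle markers given above, Tnnt2 was lower in the same libraries and Des was not. The part of any muscle cells in the value of Itga7 was not tested. Itga6, a laminin-binding partner of Itgb1 and Itgb4, rose from 347 ± 15.6 to 944 ± 57.6 (log2 fold change 1.44, SE 0.068, adjusted p = 3.7e-10, limma).

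Per kb, Itgb8 stood at 0.327 ± 0.0093 of Itgav in WT and at 0.0283 ± 0.0069 in the libraries labelled GαqKO, so the beta chain was lower also relative to its partner. For Itgb7, the partner Itgae fell from 125 ± 2.07 to 94.2 ± 19.6 (log2 fold change -0.42, SE 0.157, adjusted p = 0.03, limma) and Itga4 did not exceed 2.01 in any library. The αIIb chain gene Itga2b, whose product pairs with β3 on platelets, fell from 191 ± 27.5 to 111 ± 15.2 (log2 fold change -0.78, SE 0.144, adjusted p = 0.000313, limma). These last 3 genes were named for their pairing with a member after their values were seen. The summed alpha chain level per kb was 1630 ± 29.6 in WT and 1310 ± 23.2 in the other group, and the ratio of summed beta to summed alpha level was 1.33 ± 0.041 and 2.11 ± 0.0465. Of the beta chains that are not members, Itgb2 of leukocytes was at 20.9 ± 6.59 and 14.5 ± 2.60 (adjusted p = 0.216, limma), Itgb6 of epithelia did not exceed 11.2, and Itgb2l was at 0 in every library.

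Regulators that act on the beta tail also moved both ways. Of 12 activators and linkers 11 were tested, and 5 rose and 5 fell at an adjusted p under 0.05, with a median log2 fold change of -0.03. Over all genes tested, 31.8% rose and 34.1% fell by that rule, 65.8% in all. Apbb1ip, which encodes the RAP1 effector RIAM that brings talin to integrins, was at 66.8, 54.4 and 57.0 in WT and at 499, 594 and 520 in the libraries labelled GαqKO (log2 fold change 3.16, SE 0.119, adjusted p = 3.9e-11, limma). It is also known from leukocytes, whose markers are given above. Of 8 inhibitors and competitors, 2 rose and 3 fell by the same rule, with a median of -0.02. Kank1, which encodes a talin-binding protein, fell from 341 ± 22.5 to 29.8 ± 10.8 (log2 fold change -3.54, SE 0.224, adjusted p = 8.34e-09, limma). Its paralog Kank2 was listed with the activators and linkers, so the place of Kank1 in this list does not make it an inhibitor. Flnc, which encodes the actin crosslinker filamin C, fell from 7809 ± 707 to 2820 ± 97.5 (log2 fold change -1.47, SE 0.058, adjusted p = 5.87e-11, limma).

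The genes for ligands of these integrins moved in both directions. Of 21 ligand genes 18 were tested, 4 rose and 13 fell at an adjusted p under 0.05, with 3 and 9 past a log2 fold change of 1 as well, and the median log2 fold change was -1.09. Over all genes tested, 31.8% rose and 34.1% fell, 10.2% and 10.5% were past both limits, and the median was -0.01, and whether the list differs from other genes was not tested. Spp1, which encodes osteopontin, a ligand of αv integrins, rose from 2212 ± 186 to 32807 ± 243 (log2 fold change 3.89, SE 0.054, adjusted p = 3.28e-15, limma). Lama5, a laminin chain bound through Itgb1 and Itgb4, fell from 779 ± 102 to 25.0 ± 10.5 (log2 fold change -4.97, SE 0.215, adjusted p = 1.56e-10, limma). Cdh1, which encodes E-cadherin, the ligand of αEβ7, fell from 238 ± 3.06 to 7.96 ± 2.72 (log2 fold change -4.79, SE 0.244, adjusted p = 8.62e-10, limma). Of the ligand genes counted as fallen, Cdh1 and Lamb3 (91.5 ± 5.10 against 0.721 ± 0.629) met the filter on low values only through the WT libraries. Npnt, which encodes nephronectin, a ligand of α8β1, fell from 596 ± 44.6 to 50.5 ± 6.14 (log2 fold change -3.54, SE 0.121, adjusted p = 1.55e-11, limma). Cdh1 and Lama5 are expressed by epithelia. The epithelial marker sum given above was lower in the same libraries, but it was mostly Krt14, and Epcam and Esrp1 did not follow it. The part of any epithelial cells in these values was not tested.

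The hemidesmosome partners of Itgb4 gave 3 tested genes of 4, of which 1 rose and 2 fell at an adjusted p under 0.05. The shares over all genes tested were 31.8% and 34.1%. Plec, which encodes the linker plectin, rose from 11015 ± 2568 to 18191 ± 679 (log2 fold change 0.75, SE 0.110, adjusted p = 3.9e-05, limma). Dst, which encodes dystonin, fell from 1683 ± 420 to 1305 ± 98.6 (log2 fold change -0.34, SE 0.125, adjusted p = 0.0277, limma). Its adjusted p was above 0.05 without WT replicate 2 (0.0547), WT replicate 3 (0.11), GαqKO replicate 2 (0.0989) or GαqKO replicate 3 (0.092). In all, the 8 lists held 81 genes, of which 65 were tested, 18 rose and 36 fell, with a median log2 fold change of -0.27, and the shares over all genes are those given above.

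**Figure D4:**
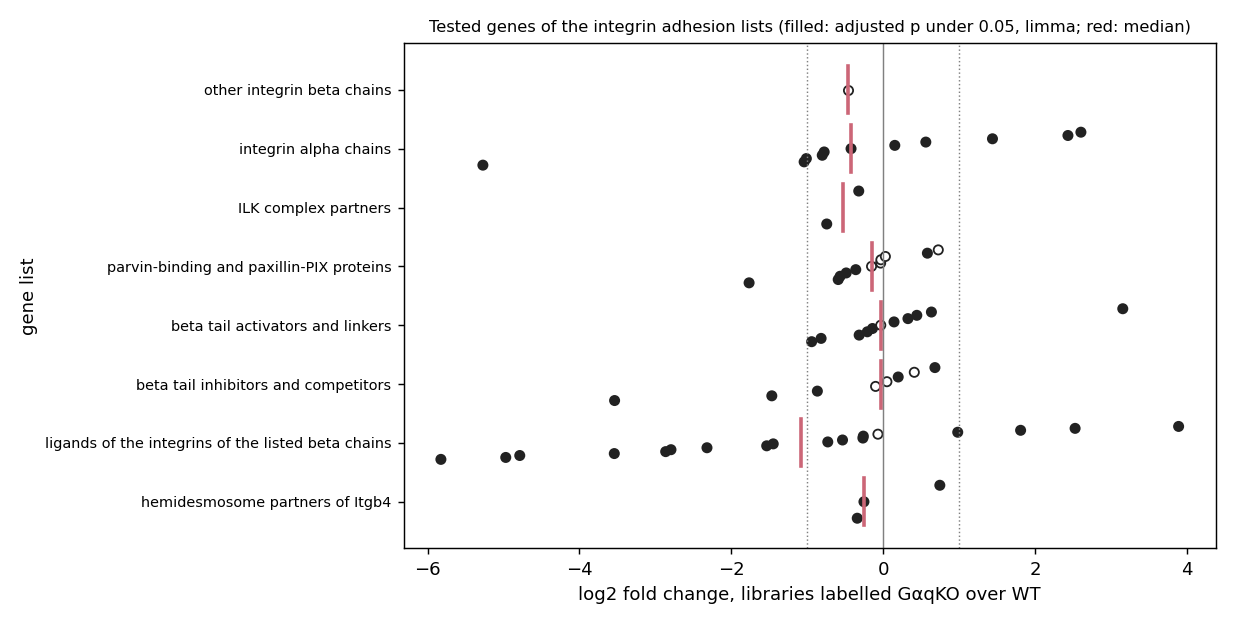
Log2 fold changes, libraries labelled GαqKO over WT, of the tested genes in 8 lists of integrin adhesion genes, with 1 circle per gene, filled where the adjusted p (limma) is under 0.05, and a red bar at each list's median. The ligand list has the lowest median, -1.09, and dotted lines mark a log2 fold change of 1 in each direction.

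The genes near Parvb on the chromosome are given as values. Parvb was chosen for its large difference, so a comparison of its size with theirs says nothing further. Of the 3 protein-coding genes with a named symbol on each side, Pnpla5, Pnpla3, Shisal1 and Rtl6 did not exceed 3.05 normalized counts in any library, and Parvg is described above. Samm50 alone of these genes was tested. Samm50, a gene of mitochondrial outer membrane assembly that ends 14.8 kb before Parvb, was at 381, 440 and 481 in WT and at 569, 531 and 504 in the libraries labelled GαqKO (log2 fold change 0.30, SE 0.087, adjusted p = 0.0074, limma). The groups for Samm50 did not overlap but lay close together. Within 1000 kb of the start of Parvb, 12 other genes with a named symbol were tested. None of these had a log2 fold change over 1 in either direction, and genes with only a Gm number or Rik name were not looked at. At an adjusted p under 0.05, 6 of the 12 rose and 2 fell, with log2 fold changes between -0.63 and 0.90 and a median of 0.17. Over all genes, 31.8% rose and 34.1% fell.

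**Figure D5:**
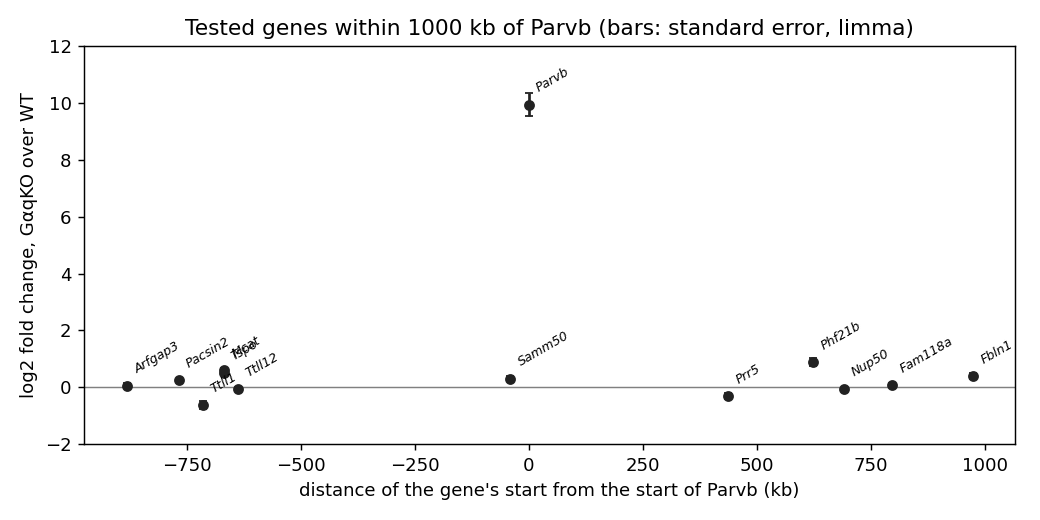
Log2 fold change, libraries labelled GαqKO over WT, of tested genes with a named symbol, against the distance in kb of each gene's start from that of Parvb, with standard errors from limma as bars. Parvb is at 9.94, and the 12 other such genes within 1000 kb lie between -0.63 and 0.90.

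The genes whose values were most like those of Parvb over the 6 libraries were ranked by Euclidean distance of log2(normalized count + 1), where a smaller distance is a closer match. Among the closest were Id4, an inhibitor of DNA binding by helix-loop-helix factors (distance 1.52), Dynlt3, a dynein light chain (2.10), Ccl28, a chemokine (2.45), and Dlk1, a noncanonical Notch ligand (3.10). Id4 was at 1.04, 1.94 and 1.02 normalized counts in WT and at 2703, 2846 and 2625 in the libraries labelled GαqKO, so it had the same near-absent and abundant groups as Parvb. These 4 genes lie on chromosomes 13, X, 13 and 12, none of them on that of Parvb. For Itgb8 the closest included Ano1, a calcium-activated chloride channel (distance 1.06), Kcnh2, a potassium channel (1.21), Pag1, a membrane adaptor for CSK (1.52) and Pwwp3b (1.57). Ano1 was at 1022, 1090 and 1167 in WT and at 32.9, 32.4 and 28.2 in the other group. With 6 libraries in 2 groups, a small distance mostly means similar levels in both groups.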

How the data were processed

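The authors selected poly-A RNA, sequenced paired-end reads, aligned them with Rbowtie2 to GRCm39, counted genes with featureCounts on GENCODE release 32 and normalized with DESeq2. The deposited table holds a signal, namely normalized counts, with no raw counts. Versions and strand setting are not given in the sources used here. Identifiers were matched to GENCODE release 39 (56310 of 56953). Groups followed the labels, which name no batch. The test was limma 3.58.1 (R 4.3.3) on log2(normalized count + 1) with a trend, over 14096 genes reaching 10 normalized counts in 3 or more libraries, adjusted by Benjamini-Hochberg. In all 6 libraries the nonzero values were whole multiples of 1 step (within 0.1 step), which gives the reads. Those of GαqKO replicate 3 were left out because a separate check of the unit did not accept them, so edgeR 4.0.16 and DESeq2 1.42.0 were run on 5 libraries as alternatives. The scripts were tested on simulated data.

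Members and lists were chosen with earlier results of these data known. Named were all members, the PINCH and Rsu1 genes, up to 4 genes per other list past the thresholds with the largest change (mean of at least 100 normalized counts) or otherwise the 2 most abundant, 3 neighbours of Parvb on each side, and the 5 closest patterns to Parvb and Itgb8, of which some are not reported here. Levels per kb used the length of the GENCODE canonical transcript, which may not be the isoform expressed. Exact intervals came from scipy 1.17.1 and tables from pandas 2.3.3 (Python 3.11.15).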

Additional observations from a re-analysis of the deposited data

How the results depend on the processing

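When each of the 6 libraries had to pass the filter, so that genes near 0 in 1 group dropped out, 831 genes were higher and 765 lower past the thresholds, against 1432 and 1486, and Parvb could not be fitted. Without any filter 1817 and 1825 passed. Leaving out 1 library gave 1426 to 1545 higher and 1492 to 1603 lower genes over the table, and 7 to 8 higher and 14 to 16 lower among the adhesion lists, against 7 and 15. Of 125 values of the 9 members under alternatives, 124 moved by less than 1 SD between replicates, and that of Parvb with a constant of 5 did not (8.50). Of 414 values of other named genes, 9 lost their call, all for Rsu1 or Dst, among them DESeq2 on 5 libraries (adjusted p = 0.0658 and 0.369). No value of a called gene changed sign. TMM scaling left the share of higher calls at 49.5%, against 49.1%. Replicate numbers did not pair the samples (correlations of deviations -0.045, -0.148 and -0.064), and no library correlated best with its own number. A fit with the replicate block gave 1421 higher and 1478 lower genes, and 7 and 15 among the lists. Depth limits Parvb in WT and Parvg to a few reads.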
